A study of Mus musculus with 4 samples.

Results

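The 10 integrin subunit genes Itga1, Itga3, Itga5, Itga6, Itga9, Itga11, Itgav, Itgb1, Itgb3, and Itgb5 were examined in 3 mouse cell lines profiled by CapSeq, a split-pool single-cell RNA sequencing method. They were chosen by symbol, and all 10 were among the 33565 genes of the count matrices, which list 27 integrin subunit genes in all. N2a is a neuroblastoma line and NIH/3T3 an embryonic fibroblast line, both grown in DMEM with fetal bovine serum, and the mESCs were of the E14TG2a embryonic stem cell line, grown on gelatin-coated dishes with serum, LIF, CHIR99021, and PD0325901. Each line was barcoded in its own 32 wells of the first barcoding plate (BC1), pooled with the other lines for sequencing, and deposited as 1 library, with no replicate cultures named. No test between lines was therefore made. The 95% intervals given here are exact Poisson intervals for levels, exact binomial intervals for shares, and exact conditional intervals for ratios, and all cover counting error only. Levels are given as CPM, the unique molecular identifiers (UMIs) counted for a gene per 1000000 UMIs of the line.

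Integrins are the main receptors by which animal cells hold on to the extracellular matrix. Each receptor is a pair of an alpha and a beta chain that assemble before reaching the cell surface, so the chains a cell makes decide which ligands it can bind. Alpha 5 reads the arginine-glycine-aspartate site of fibronectin, and alpha v reads that of fibronectin and vitronectin. Alpha 3 and alpha 6 bind laminins, alpha 1 and alpha 11 bind collagens, and alpha 9 binds tenascin and related ligands. Beta 1 pairs with most alpha chains, whereas beta 3 and beta 5 pair with alpha v.

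Barcodes were kept when they held 1000 UMIs or more with no more than 20% from mitochondrial genes, which gave 2323 N2a, 2037 NIH/3T3, and 2137 mESC cells. These cells held 17955221, 11697865, and 12322098 UMIs, with medians of 6185, 4863, and 4803 UMIs per cell. No barcode was shared between lines (0 barcodes), which follows from their separate BC1 sequences and is no check of how well they were separated. Markers of each line were found in it: Hand2 and Chgb were at 404 and 317 CPM in N2a, Col1a2 and Prrx1 at 460.6 and 622 CPM in NIH/3T3, and Zfp42 and Dppa5a at 1318 and 1821 CPM in mESCs. Of markers of other cells, the leukocyte genes Ptprc and Cd68 had 2 and 28 UMIs in N2a, 0 and 60 in NIH/3T3, and 0 and 145 in mESCs. The endothelial gene Pecam1, which embryonic stem cells also express, had 2326 UMIs in mESCs, 1712 in N2a, and 54 in NIH/3T3, and Cdh5 had 1, 3, and 17 in the same order. The endoderm genes Gata6 and Sox17 had 0 UMIs in N2a and NIH/3T3 and 15 and 5 in mESCs. Markers of another line were found at low levels. The 8 markers above 200 CPM in their own line, a limit chosen after the values were seen, had 0.0592% to 0.624% of that level in the other lines, where 0.328% to 6.04% of cells held a UMI of them. Some markers below this limit had higher percentages. Col1a1, at 28.6 CPM in NIH/3T3, had 2.56% of that level in mESCs and 0.195% in N2a. Since a share of cells depends on how abundant the marker is in its own line, only the percentage of the level was set beside the members. Doublets were not called.

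The sum of the 10 subunits was highest in NIH/3T3, at 1020.4 CPM (1002 to 1039), followed by N2a at 894 CPM (880.2 to 907.9) and mESCs at 652 CPM (637.5 to 666). The intervals did not overlap. The 3 beta chains summed to 651 CPM in NIH/3T3, 666 CPM in N2a, and 249 CPM in mESCs, whereas the 7 alpha chains summed to 369, 228, and 403 CPM. Without Itgb1, mESCs were highest instead of lowest, with 450.3 CPM in mESCs, 379 CPM in NIH/3T3, and 274 CPM in N2a. This order applies to the listed members only. The 17 other integrin subunits, left out of these sums, were lowest in mESCs, at 55.6 CPM, against 186 CPM in NIH/3T3 and 243 CPM in N2a. Of the 10 members, 5 were highest in mESCs (Itga3, Itga6, Itga9, Itga11, and Itgb5), 3 in NIH/3T3 (Itga5, Itgav, and Itgb1), and 2 in N2a (Itga1 and Itgb3).

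**Figure D1:**
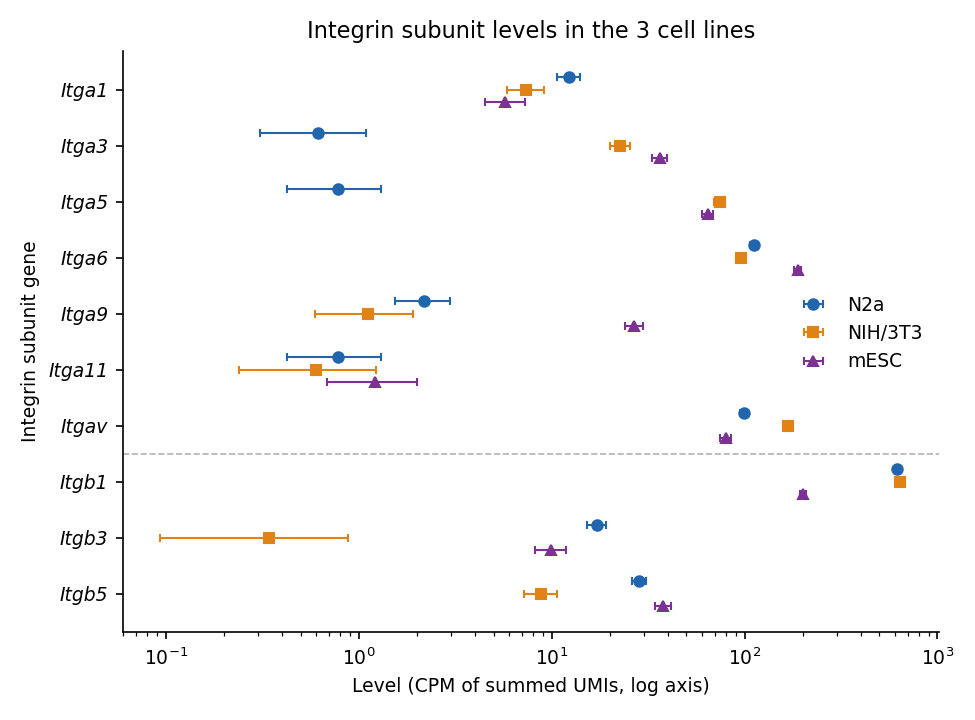
Levels of the 10 integrin subunit genes (vertical axis) in CPM on a log axis (horizontal), with alpha chains above and beta chains below the dashed line. Points are the values of the 3 lines and bars the 95% exact Poisson intervals. Itga3 and Itga5 lie below 1 CPM in N2a and Itgb3 lies below 1 CPM in NIH/3T3, whereas Itgb1 exceeds 200 CPM in every line.

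Itgb1 (ENSMUSG00000025809, GRCm39 chromosome 8, 129411876 to 129460618), the common partner of most alpha chains, was at 620.5 CPM (609 to 632) in N2a, 642 CPM (627 to 657) in NIH/3T3, and 201 CPM (193.5 to 209) in mESCs. N2a and NIH/3T3 had nearly the same level, with overlapping intervals and a ratio of 0.967 (0.939 to 0.995), and mESCs stood apart. The level in mESCs was lower by a ratio of 3.08 (2.95 to 3.22) against N2a and 3.19 (3.05 to 3.34) against NIH/3T3. Over the 32 BC1 wells of a line, which are parts of 1 cell sample and not replicates, Itgb1 ranged from 520 to 706 CPM in N2a, from 572 to 790.3 CPM in NIH/3T3, and from 148 to 255 CPM in mESCs. Every mESC well was therefore below every well of the other lines.

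Itgb3 (ENSMUSG00000020689, chromosome 11, 104498826 to 104561302), which forms the vitronectin receptor with alpha v, was at 17.2 CPM (15.3 to 19.2) in N2a, 9.90 CPM (8.22 to 11.8) in mESCs, and 0.342 CPM (0.0932 to 0.876) in NIH/3T3. It was the member with the fewest UMIs in any line, with 4 in NIH/3T3 against 308 in N2a and 122 in mESCs. The level in N2a was 50.2 times that in NIH/3T3 (19.4 to 185) and 1.73 times that in mESCs (1.40 to 2.15). The NIH/3T3 level was 1.99% of that in N2a, and its interval of 0.540% to 5.16% held the highest percentage of the markers, 0.624%. The source of these 4 UMIs was not tested. In NIH/3T3, 3 of 32 wells held an Itgb3 UMI, against all 32 wells in N2a and 31 in mESCs.

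Itgb5 (ENSMUSG00000022817, chromosome 16, 33649988 to 33771137), the other alpha v partner among the members, was again lowest in NIH/3T3, with 8.80 CPM (7.19 to 10.7). N2a had 28.3 CPM (25.9 to 30.9) and mESCs 37.7 CPM (34.4 to 41.3), and the ratio to it was 3.22 (2.60 to 4.02) for N2a and 4.29 (3.46 to 5.36) for mESCs. Both of these partners of alpha v were thus lowest in the line with the most Itgav.

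Itgav (ENSMUSG00000027087, chromosome 2, 83554403 to 83637260), the alpha v chain, had 168 CPM (160.5 to 175) in NIH/3T3, against 99.6 CPM (95.0 to 104) for N2a and 79.8 CPM (74.9 to 84.9) for mESCs. The 3 intervals did not overlap, but the ranges over wells did, from 111 to 236 CPM in NIH/3T3, from 63.9 to 161 CPM in N2a, and from 53.0 to 144 CPM in mESCs. The level in NIH/3T3 was 1.69 times that in N2a (1.58 to 1.80) and 2.10 times that in mESCs (1.95 to 2.27).

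Itga5 (ENSMUSG00000000555, chromosome 15, 103252713 to 103275270) encodes alpha 5, which with beta 1 forms the classical fibronectin receptor. It had 74.2 CPM (69.3 to 79.3) in NIH/3T3, 64.3 CPM (59.9 to 68.9) in mESCs, and 0.780 CPM (0.426 to 1.31) in N2a. NIH/3T3 and mESCs differed by a ratio of 1.15 (1.05 to 1.27), and their wells overlapped. N2a held 14 Itga5 UMIs in total, and its level was 1.05% of that in NIH/3T3, by a ratio of 95.2 (56.4 to 175). This percentage lies above the markers' range of 0.0592% to 0.624%, but its interval, 0.572% to 1.77%, held the upper end of that range. It was also taken of the NIH/3T3 level alone, although mESCs held Itga5 too, whereas each of those markers was high in 1 line. The source of these 14 UMIs was not tested. A UMI was found in 0.603% of N2a cells. No N2a well exceeded 3.68 CPM, and no well of the other lines was below 27.1 CPM.

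**Figure D2:**
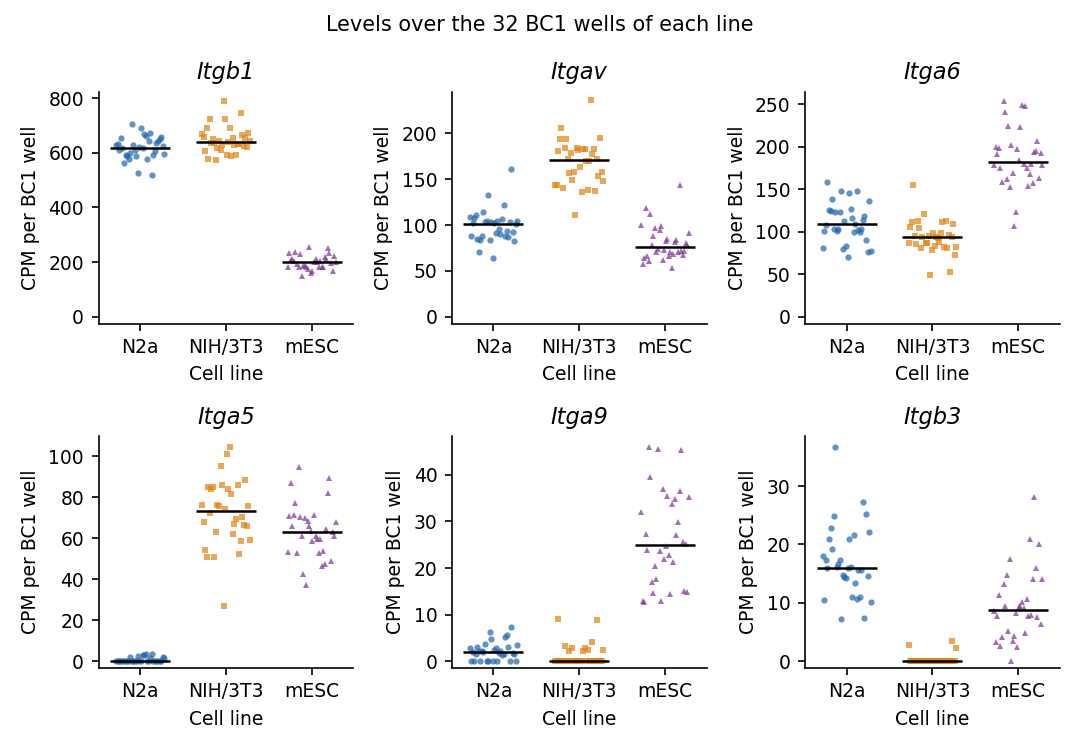
Levels of 6 subunits in CPM (vertical axes, from 0) over the 32 BC1 wells of each line (horizontal axis). Each point is 1 well and the line is the median of the wells, which are parts of 1 cell sample per line. For Itga5 the N2a wells, at most 3.68 CPM, lie below all wells of NIH/3T3 and mESCs, and for Itgb1 the mESC wells, at most 255 CPM, lie below all wells of N2a and NIH/3T3.

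Of the laminin-binding chains, Itga6 (ENSMUSG00000027111, chromosome 2, 71575960 to 71689757) was present in every line. Alpha 6 pairs with beta 1 or beta 4 and is widely used as a surface marker of stem and progenitor cells. Its level was 189 CPM (181 to 196) in mESCs, against 112 CPM (107 to 117) for N2a and 95.7 CPM (90.1 to 101) for NIH/3T3. The mESC level was 1.69 times that of N2a (1.59 to 1.79) and 1.97 times that of NIH/3T3 (1.84 to 2.12). The ranges over wells overlapped in all 3 pairs of lines.

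Itga3 (ENSMUSG00000001507, chromosome 11, 94935296 to 94967682) encodes alpha 3, a receptor for laminins of basement membranes. It followed the order mESCs with 36.3 CPM (33.0 to 39.8), NIH/3T3 with 22.7 CPM (20.01 to 25.6), and N2a with 0.613 CPM (0.306 to 1.10). The N2a level rested on 11 UMIs and was lower than that of NIH/3T3 by a ratio of 37.0 (20.3 to 75.0) and than that of mESCs by 59.2 (32.8 to 119). It was 1.69% of the mESC level, with an interval of 0.837% to 3.05% that lay above the markers' range, and a UMI was found in 0.474% of N2a cells. The wells of N2a, at most 3.37 CPM, did not overlap with those of NIH/3T3, at least 6.51 CPM, or of mESCs, at least 11.3 CPM. Itga3 and Itga5 were the only members with fewer than 1 CPM in N2a apart from Itga11, which was near that level in all 3 lines.

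Itga9 (ENSMUSG00000039115, chromosome 9, 118435722 to 118730072) was highest in mESCs, with 26.8 CPM (24.0 to 29.8), against 2.17 CPM (1.54 to 2.97) for N2a and 1.11 CPM (0.592 to 1.90) for NIH/3T3. The mESC level was 12.3 times that of N2a (8.83 to 17.7) and 24.1 times that of NIH/3T3 (13.9 to 45.7). All mESC wells, from 12.8 to 46.0 CPM, were above all wells of the other lines, which reached 7.32 CPM in N2a and 9.03 CPM in NIH/3T3.

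The collagen-binding chains were low. Itga1 (ENSMUSG00000042284, chromosome 13, 115089632 to 115238677) had 12.3 CPM (10.7 to 14.0) in N2a, 7.35 CPM (5.88 to 9.08) in NIH/3T3, and 5.76 CPM (4.50 to 7.27) in mESCs. The intervals of NIH/3T3 and mESCs overlapped. The ratio of N2a to NIH/3T3 was 1.67 (1.29 to 2.16), and that of N2a to mESCs was 2.13 (1.62 to 2.82). Itga11 (ENSMUSG00000032243, chromosome 9, 62585108 to 62691617) had 15 UMIs in mESCs, 14 in N2a, and 7 in NIH/3T3, or 1.22, 0.780, and 0.598 CPM, with overlapping intervals. It was found in 0.344% to 0.702% of cells. The N2a and NIH/3T3 levels were 64.1% and 49.2% of that in mESCs, and no order of the lines was read from so few UMIs.

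Several members share their position with other listed genes. In GENCODE M39, Pelo lies on the same strand within the bounds of Itga1, and the noncoding genes Gm13662 and Gm13663 do so for Itga6. On the opposite strand, Itga1, Itga3, Itga9, and Itgav each overlap at least 1 gene. The strand setting of the counting is not given in the sources used here, so reads of these pairs may not be fully separated. Itga5, Itga11, Itgb1, Itgb3, and Itgb5 overlap no other gene of the matrices.

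The promoter sequences of Itga3 and Itga5, the 2 members with levels in NIH/3T3 and mESCs and fewer than 15 UMIs in N2a, are shown beside that of Itgb1, which had the highest level per exonic length of all members in each line. They come from RefSeq on GRCm38.p6 and run from 250 bases before to 50 bases after the gene start, 5′ to 3′ on the strand of the gene. Capitals mark matches, on either strand, to GGGCGG (GC box) or, once in Itgb1, GGAATG (the TEAD motif).

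Itga3, chr11:95076665-95076964, minus strand: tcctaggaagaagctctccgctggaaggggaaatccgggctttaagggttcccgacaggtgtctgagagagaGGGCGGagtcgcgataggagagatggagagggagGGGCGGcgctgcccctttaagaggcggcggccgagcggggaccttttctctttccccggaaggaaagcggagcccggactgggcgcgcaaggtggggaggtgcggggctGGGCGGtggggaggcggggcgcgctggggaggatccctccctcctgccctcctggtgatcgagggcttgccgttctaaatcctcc

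Itga5, chr15:103366742-103367041, minus strand: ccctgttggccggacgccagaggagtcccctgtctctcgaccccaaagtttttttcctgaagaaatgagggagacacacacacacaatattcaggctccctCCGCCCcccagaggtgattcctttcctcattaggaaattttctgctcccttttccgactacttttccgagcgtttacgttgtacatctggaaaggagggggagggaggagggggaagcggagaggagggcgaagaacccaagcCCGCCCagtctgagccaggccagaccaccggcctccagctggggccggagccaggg

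Itgb1, chr8:128685404-128685703, plus strand: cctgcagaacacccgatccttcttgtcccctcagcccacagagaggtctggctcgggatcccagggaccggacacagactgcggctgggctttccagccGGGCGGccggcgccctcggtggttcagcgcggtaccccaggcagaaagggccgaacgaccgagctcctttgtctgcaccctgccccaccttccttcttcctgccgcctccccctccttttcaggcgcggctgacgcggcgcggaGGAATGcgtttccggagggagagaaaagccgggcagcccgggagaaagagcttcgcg

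The Itga3 window held 3 GC boxes, the Itga5 window 2, and the Itgb1 window 1. The window of Itga3 had 24 CpG dinucleotides, that of Itga5 had 13, and that of Itgb1 had 27, against a median of 7 over all 32851 windows of the table. Of the 8 members with an entry, 5 held a GC box in at least 1 window (Itga3, Itga5, Itgav, Itgb1, and Itgb5). Counted by window and not by gene, 35.7% of all windows held one. The AP-1 motif TGANTCA was in a window of Itga3, a second one further into the gene, and of Itga9, against 7.81% of all windows, and GGAATG was in that of Itgb1 only, against 14.7%. Whether the Itga9 window lies at the main start of the gene was not checked, since windows and gene bounds are on different builds. CACGTG and TATAAA, found in 7.15% and 13.6% of all windows, were in none of the 9 windows of these members. No matches overlapped. Itga6 and Itgb3 had no entry. These matches are descriptions of the letters and were not tested against the levels.

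Within a line, subunits were compared per kb of exonic length, since genes of different length may not be counted alike. On this scale, Itgb1 was highest in every line, with 108 CPM per kb in NIH/3T3, 104 in N2a, and 33.7 in mESCs. It made up 98.8% of the level of the 3 beta chains in NIH/3T3, 94.0% in N2a, and 83.1% in mESCs. By plain UMIs the shares were 98.6% (98.3% to 98.8%), 93.2% (92.7% to 93.6%), and 80.9% (79.4% to 82.2%), and these intervals did not overlap between lines. In mESCs, Itgb5 made up 13.2% and Itgb3 3.69% of the beta level per exonic kb, against 3.63% and 2.35% in N2a and 1.15% and 0.0475% in NIH/3T3. These shares leave out the other beta chains, so their order of lines applies to the 3 examined. Per exonic kb in NIH/3T3, Itgb7 had 15.7, Itgb4 7.30, and Itgb8 4.25 CPM, against 1.25 for Itgb5. In N2a, Itgb6 had 6.25 CPM, against 4.02 for Itgb5. In mESCs, Itgb7 and Itgb4 had 0.951 and 0.855 CPM, against 5.35 for Itgb5.

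Among the 7 alpha chains examined, Itga6 led in N2a and mESCs and Itga5 in NIH/3T3 on the same scale. This order leaves out the other alpha chains, of which Itga8 in N2a, at 12.9 CPM per exonic kb, was above Itga6 at 9.83. In N2a, Itga6 with 51.4% and Itgav with 42.2% made up most of the level of these 7 chains per exonic kb, and Itga5 had 0.766%. In NIH/3T3, Itga5 with 34.5% and Itgav with 33.7% were followed by Itga6 with 20.8% and Itga3 with 9.62%. In mESCs, Itga6 with 36.6% was followed by Itga5 with 26.7%, Itgav with 14.3%, Itga3 with 13.8%, and Itga9 with 7.65%. By plain UMIs, Itgav led in NIH/3T3 with 45.4% (43.9% to 46.9%), Itga6 had 25.9%, and Itga5 20.1%, so that the order of these chains depended on the scale. When the whole gene span was used instead, Itga5 led in NIH/3T3 with 47.6% and in mESCs with 42.3%, and Itgav led in N2a with 51.5%.

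**Figure D3:**
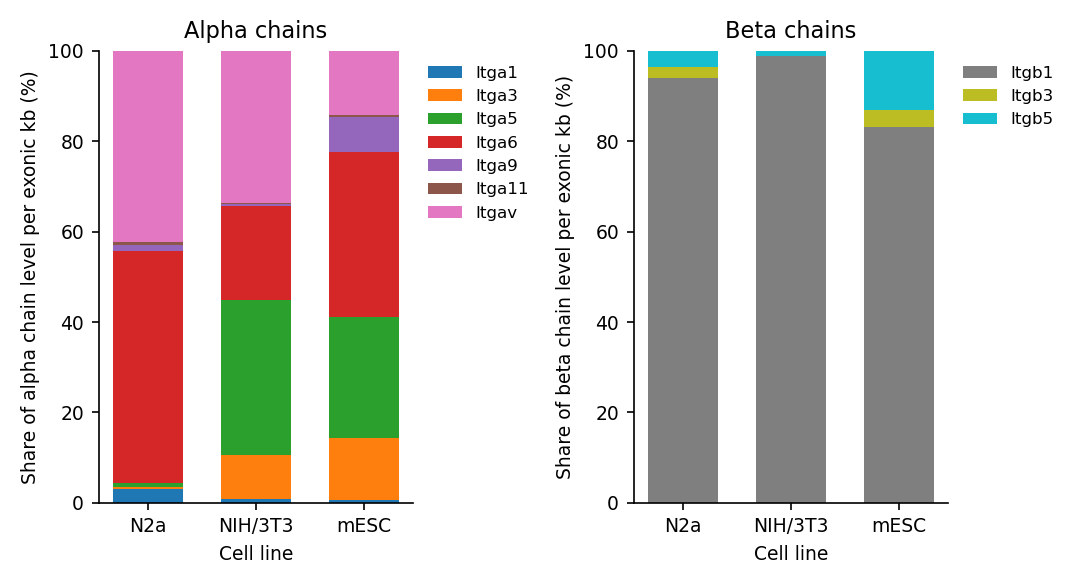
Share of each subunit (percent, vertical axis from 0 to 100) in the summed level per exonic kb of the 7 alpha chains and of the 3 beta chains, for the 3 lines (horizontal axis). Itga5 takes 34.5% of the alpha level in NIH/3T3 and 26.7% in mESCs, but 0.766% in N2a, and Itgb1 takes at least 83.1% of the beta level in each line.

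Beta chains made up 74.5% (73.8% to 75.2%) of the UMIs of the 10 subunits in N2a, 63.8% (62.9% to 64.7%) in NIH/3T3, and 38.2% (37.1% to 39.3%) in mESCs. Per exonic kb, the shares were 85.2%, 72.9%, and 47.3%, in the same order of lines. These shares leave out the other integrin chains, so their order of lines applies to the 10 examined. Among those left out, N2a had 139 CPM of the alpha chain gene Itga8 and 45.8 CPM of Itgb6. NIH/3T3 had 52.7 CPM of Itgb4, 47.9 CPM of Itgb8, and 45.5 CPM of Itgb7.

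In single cells, a UMI of Itgb1 was found in 89.4% of N2a cells (88.1% to 90.6%), 88.4% of NIH/3T3 cells (86.9% to 89.7%), and 56.4% of mESCs (54.3% to 58.5%). After each cell was thinned to 1000 UMIs, so that depth was equal, the shares were 45.8%, 45.7%, and 18.8%. For Itga6 they were 10.7%, 8.39%, and 16.3%, and for Itgav 8.91%, 15.8%, and 7.58%, in the orders of the CPM levels. Thinned shares of Itga5 were 6.77% in NIH/3T3 and 7.39% in mESCs, with overlapping intervals, and 0.0430% in N2a, where 1 cell held a UMI. A median of 2 of the 10 subunits was detected per cell in each line, with at most 8 in an mESC and at most 6 in a cell of the other lines.

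At least 1 UMI of any of the 10 subunits was found in 93.6% of N2a cells, 95.3% of NIH/3T3 cells, and 87.2% of mESCs. After thinning, these shares were 58.3% (56.3% to 60.3%), 63.1% (61.0% to 65.2%), and 47.8% (45.7% to 49.97%). UMIs of both an alpha and a beta member were found in 62.3% of N2a cells, 69.2% of NIH/3T3 cells, and 52.3% of mESCs, and after thinning in 10.3%, 13.5%, and 7.91%. In mESCs, 65.9% of the 578 cells with an Itga5 UMI also held Itgb1, against 56.4% of all mESCs. The median depth of those 578 cells was 6780 UMIs against 4803 in all mESCs, and its part in this difference was not tested.

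Members were then set beside all genes by a rule of size, among genes with at least 5 CPM in either line. It asked for a difference of at least 1 in log2(CPM + 1), with intervals that do not overlap. At low levels this is stricter than 2-fold. Itga1 in N2a was 2.13 times its mESC level (1.62 to 2.82) but differed by 0.97 and was not called. Between N2a and NIH/3T3, 2 members were called higher in N2a (Itgb3 and Itgb5), against 20% of all genes tested, and 2 higher in NIH/3T3 (Itga3 and Itga5), against 18.5%. Between N2a and mESCs, Itgb1 was called higher in N2a, against 22.3% of all genes, and Itga3, Itga5, and Itga9 higher in mESCs, against 21%. With a pseudocount of 0.1 CPM, Itga1 was called higher in N2a as well. Between NIH/3T3 and mESCs, Itgav and Itgb1 were called higher in NIH/3T3, against 21.7%, and Itga9, Itgb3, and Itgb5 higher in mESCs, against 22.8%. With median-of-ratios size factors, the Itgav call was lost (1.00, just under the limit) and Itga6 was called higher in mESCs (-1.04). The filter kept 8, 9, and 9 of the 10 members in these pairs, with Itga11 left out of all and Itga9 of the pair of N2a and NIH/3T3. With 8 or 9 members tested, these counts were not read as setting the members apart from the background. The median difference of the members tested was 0.09 for N2a minus NIH/3T3, -0.40 for N2a minus mESCs, and -0.66 for NIH/3T3 minus mESCs. Over the 11812, 12245, and 12067 genes tested it was 0.04, 0.05, and 0.01. With the members left out by the filter added, the medians of all 10 were 0.19, -0.36, and -0.56.

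**Figure D4:**
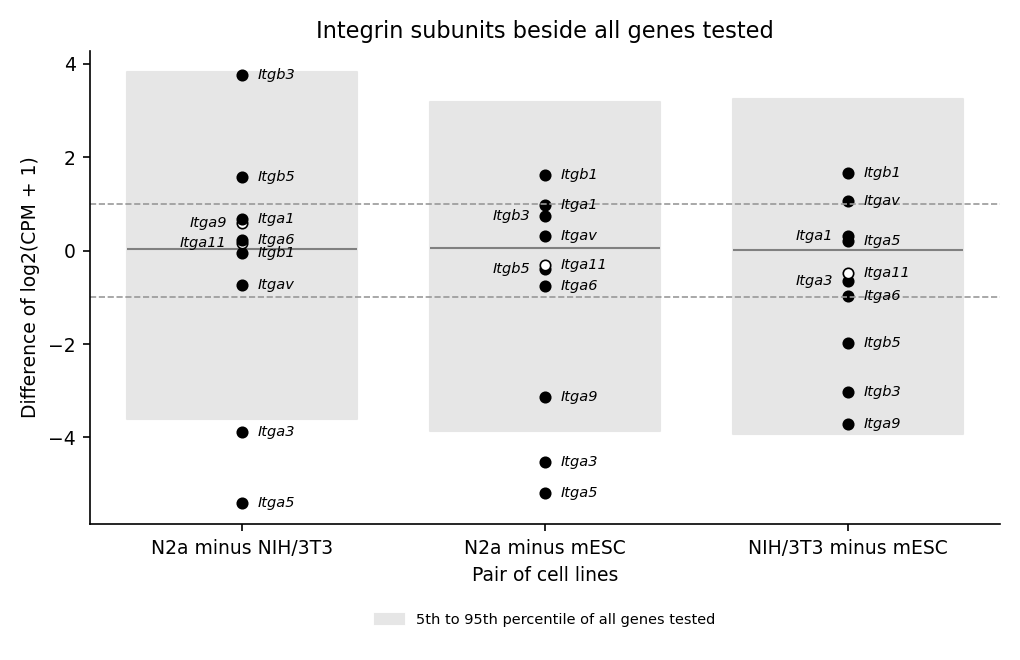
Differences of log2(CPM + 1) of the 10 subunits (points) for each pair of lines (horizontal axis), with open points for members below 5 CPM in both lines. The grey band runs from the 5th to the 95th percentile of all genes tested, and the grey line is their median. The dashed lines mark the limits of the rule of size, 1 and -1. Itga5, at -5.40 and -5.20, and Itga3, at -3.87 and -4.53, lie below the band in the 2 pairs with N2a.

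Of the 17 other integrin subunits, 4 reached 5 CPM in mESCs, 5 in NIH/3T3, and 7 in N2a. Their summed levels were 55.6, 186, and 243 CPM. Itga8, another alpha chain that reads the arginine-glycine-aspartate site, had 139 CPM (133 to 144) in N2a, 3.65 CPM (2.66 to 4.89) in mESCs, and 0.598 CPM (0.241 to 1.23) in NIH/3T3. Itgb4, the partner of alpha 6 in hemidesmosomes, had 52.7 CPM (48.6 to 57.0) in NIH/3T3, 6.17 CPM in mESCs, and 4.29 CPM in N2a. Itgb8, another alpha v partner, had 47.9 CPM (44.0 to 52.0) in NIH/3T3 and 1 UMI in each other line. Per exonic kb, Itgb8 had 4.25 CPM in NIH/3T3, against 1.25 for Itgb5 and 0.0517 for Itgb3. By the rule of size, of 11 tested subunits 5 were higher in N2a (20% of all genes tested) and 5 in NIH/3T3 (18.5%). Of 8 tested, 4 were higher in N2a than in mESCs (22.3% of all genes) and 0 lower (21%). Of 7 tested, 4 were higher in NIH/3T3 than in mESCs (21.7%) and 1 lower (22.8%).

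Genes that act with integrins were set beside the shares of all genes called by the same rule. Between N2a and NIH/3T3, these were 20% higher in N2a and 18.5% in NIH/3T3. Between N2a and mESCs they were 22.3% and 21%, and between NIH/3T3 and mESCs 21.7% and 22.8%, the line named first given first. Of 22 adaptors and activators, several of which link the beta tail to actin, 20 reached 5 CPM in mESCs and 19 in each other line. Of 20 tested between N2a and NIH/3T3, 2 were higher in N2a and 5 in NIH/3T3. Of 21 tested between N2a and mESCs, 6 were higher in N2a and 4 in mESCs. Of 21 tested between NIH/3T3 and mESCs, 6 were higher in NIH/3T3 and 2 in mESCs. These counts were not read as setting the adaptors and activators apart from all genes. Parva, the alpha-parvin of the complex with integrin-linked kinase, had 37.3 CPM in mESCs, 201 in NIH/3T3, and 344 in N2a, and was thus, like Itgb1, lowest in mESCs. Lims1, a further part of that complex, had 209, 394, and 147 CPM in N2a, NIH/3T3, and mESCs, and the actin crosslinker Actn1 had 198, 355, and 185 CPM. All 4 inhibitors reached 5 CPM in each line. Nisch had 151, 158, and 127 CPM in N2a, NIH/3T3, and mESCs, Itgb1bp1, whose product binds the beta 1 tail, had 22.6, 54.6, and 20.8 CPM, and Dok1 had 14.6, 38.9, and 7.63 CPM. Between N2a and NIH/3T3, 2 inhibitors were higher in NIH/3T3, between N2a and mESCs 0 passed, and 3 were higher in NIH/3T3 than in mESCs. Of 8 membrane partners, all tested between N2a and NIH/3T3, 1 was higher in N2a and 2 in NIH/3T3. Of 7 tested, 2 were higher in N2a than in mESCs and 0 lower. Of 8 tested, 5 were higher in NIH/3T3 than in mESCs with 1 lower. Among the partners, Cd63 had 196, 1053, and 138 CPM in N2a, NIH/3T3, and mESCs. Cd9 had 500.1, 157, and 402 CPM, and Bsg had 243, 425 and 186 CPM in the same order.

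The fibronectin-class ligands summed to 126, 1061, and 1787 CPM in N2a, NIH/3T3, and mESCs, the laminin chains to 225, 531, and 527 CPM, and the collagen chains to 9.41, 935, and 40.4 CPM, so that each class was lowest in N2a. Of the 11 fibronectin-class ligands, 7 of 8 tested were higher in NIH/3T3 than in N2a (18.5% of all genes) and 0 lower (20%). In mESCs, 7 of 8 tested were higher than in N2a (21% of all genes) and 1 lower (22.3%). Fn1, fibronectin itself, had 113 CPM (108 to 118) in N2a, 411 CPM (399.6 to 423) in NIH/3T3, and 642 CPM (628 to 656) in mESCs, the line order not shared by Itga5. Spp1, osteopontin, had 2.12, 464, and 795 CPM, and Nid1, nidogen 1, had 1.84, 56.1, and 224 CPM. Of the laminin chains, Lama1 had 63.1 CPM in mESCs and 1 and 2 UMIs in N2a and NIH/3T3, Lamb1 had 248 CPM in NIH/3T3, 19.6 in mESCs, and 3 UMIs in N2a, and Lamc1 had 175, 247, and 348 CPM in N2a, NIH/3T3, and mESCs. Between mESCs and N2a, 6 of 9 tested laminin chains were higher in mESCs (21% of all genes) and 1 lower (22.3%). Between NIH/3T3 and N2a, 2 of 5 were higher in NIH/3T3 (18.5%) and 1 lower (20%). All 7 collagen chains were higher in NIH/3T3 than in N2a (18.5% of all genes) and than in mESCs (21.7%). In NIH/3T3, Col1a2, Col4a2, and Col4a1 had 460.6, 134, and 131 CPM. The collagen receptors Itga1 and Itga11 had at most 7.35 CPM in NIH/3T3.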

How the data were processed

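UMI counts were analysed for the 10 subunits in the N2a, NIH/3T3, and mESC matrices. The authors trimmed the template switching oligo, split the reads by BC1, and aligned and counted them with STARsolo on GRCm39 (GENCODE M30). The counts they deposited are raw UMIs per gene and barcode, without cell filtering. Whether intronic reads were counted is not given in the sources used here. Of the 33565 gene identifiers, 32953 were found in GENCODE M39, from which positions and exonic lengths were taken.

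UMIs were summed over the filtered cells of a line and divided by all UMIs of these cells. Thinning drew 1000 UMIs per cell without replacement. In the rule of size, a pseudocount of 1 CPM was used. The rule of size, the Poisson intervals, and the thinning were tested on simulated data. Scripts used scipy 1.17.1, numpy 2.4.6, and pandas 2.3.3 under Python 3.11.15, and figures matplotlib 3.10.9.

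The members, gene lists, and rules were chosen with earlier results of these data known. All 10 members were named, and of each other list the 3 genes with the highest CPM in any line. Itgb6 and Itgb7 were named in addition. Alternatives changed the cells, matrix, scaling, total, pseudocount, filter, length, and depth. The result for 1 marker gene is not reported here.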

Additional observations from a re-analysis of the deposited data

How the results depend on the processing

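No paired analysis was possible because each line had 1 library, and no library could be left out. Of 330 log2 differences under the alternatives, 327 kept their result by the rule of size. Direction was compared only for differences that passed the rule. With a pseudocount of 0.1 CPM, Itga1 became higher in N2a than in mESCs (1.08), which made 2 members instead of 1. With median-of-ratios size factors, Itgav no longer passed between NIH/3T3 and mESCs (1.00, just under the limit), which left 1 member instead of 2, and Itga6 became higher in mESCs (-1.04). The cause of these moves was not tested. No difference that passed the rule changed sign. Of 240 levels of single subunits, 217 stayed within their counting interval.

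The summed level depended on scaling. With size factors it was 879 CPM in N2a and 670.4 CPM in mESCs. With each cell weighted alike, it was 873 CPM in N2a and 1042 CPM in NIH/3T3. Without mitochondrial and ribosomal protein genes in the total, it was 1157 CPM in NIH/3T3, 985 CPM in N2a, and 725 CPM in mESCs. In NIH/3T3 it was 997 CPM over all barcodes and 1042 CPM without the 5% of cells with the most UMIs. The order of the lines was the same in each case.

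Per kb of exonic length, the Itgb1 share was 94.0% in N2a and 83.1% in mESCs, and the beta share was 47.3% in mESCs, 72.9% in NIH/3T3, and 85.2% in N2a. Per kb of gene span, the Itgb1 share was 89.8%, 99.4%, and 96.2%, and the beta share 40.6%, 65.7%, and 85.0%, in the same order of lines.

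The share of cells with a UMI of any subunit depended on depth. Unthinned, it was 95.3% in NIH/3T3, 93.6% in N2a, and 87.2% in mESCs, and with 2000 UMIs per cell 85.2%, 81.5%, and 69.9%. Levels under 1 CPM rested on 4 to 14 UMIs, and the largest move, for Itgb3 in NIH/3T3, was to 0.200 CPM without the 5% of cells with the most UMIs.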

Other observations

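In mESCs, 78 cells held at least 3 UMIs over 8 genes that mark the 2-cell-like state, among them Zscan4d and Zfp352, and 2059 did not. Itgb1 had 171 CPM (95% exact Poisson interval 132 to 219) in the 78 cells and 202 CPM (194 to 211) in the others, and Itga6 had 144 CPM (108 to 188) and 190.0 CPM (182 to 198). Itga5 had 61.5 CPM (38.98 to 92.3) and 64.4 CPM (59.9 to 69.1). The intervals overlapped for all 10 subunits, which rested on 1 to 64 UMIs in the 78 cells. Their median depth was 3881 UMIs, against 4845 in the others.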
